A study of Mus musculus with 10 samples.

Results

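The AP-1 and BATF family was examined in bulk RNA-seq libraries of Treg cells. It was taken as the genes Fos, Fosb, Fosl1, Fosl2, Jun, Junb, Jund, Batf, Batf3 and Atf3, found by name, and all 10 members were among the 55809 gene rows of every library. The cells were taken from spleen and lymph nodes. In these mice Foxp3 is made from its own locus as a fusion protein with an auxin-inducible degron (AID). Both groups carried this allele and both received 5-ph-IAA, an auxin analog, for 14 days. In the R26-TIR1(F74G) group (6 libraries) the ROSA26 allele also encodes TIR1(F74G), a mutated plant protein that marks the fusion protein for degradation when 5-ph-IAA is present. The R26-WT group (4 libraries) has no TIR1 and served as the control.

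Per the study's methods the degron allele also carries a ZsGreen reporter and a Cre recombinase. TIR1(F74G) and an mCherry reporter are driven by a ubiquitous promoter behind a stop cassette, so that only cells in which Cre was made from the Foxp3 allele express them. The general sorting scheme takes ZsGreen+ cells, and mCherry+ cells in addition where TIR1 is present. It is not stated for these libraries, and where it applied, the gate and the genotype cannot be told apart. The labels give neither sex nor age. Per the study, experiments with this length of degradation used hemizygous males, both neonates and adults, and which age these libraries are from is not stated. The library names carry a mouse number of their own for each of the 10 libraries, and whether any mice were pooled is not stated.

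AP-1 is a dimer of basic leucine zipper (bZIP) proteins. FOS proteins must pair with a JUN protein to bind DNA, whereas JUN proteins also pair among themselves. Fos, Fosb, Jun and Junb are immediate early genes, which are transcribed within minutes of T cell receptor (TCR) signals and also when tissue is dissociated and cells are sorted. BATF and BATF3 pair with JUN proteins and bind DNA together with IRF4 or IRF8. BATF is known for its part in effector Treg cells of nonlymphoid tissue, and JUNB too acts in effector Treg cells. ATF3 is a stress-induced partner of JUN proteins.

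The promoters of Fos, Jun and Junb, the members that fell in R26-TIR1(F74G), are shown with that of Batf, which did not pass the test, because all 4 genes are well expressed and could share response elements. The sequences are from RefSeq (build GRCm38.p6, 250 bases before to 50 bases after the start of transcription, 5′ to 3′ on the strand of the gene). Each matched GRCm39, the build of the counts, at a single position. Capitals mark the motifs searched on both strands.

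Fos, chr12:85520414-85520713, plus strand: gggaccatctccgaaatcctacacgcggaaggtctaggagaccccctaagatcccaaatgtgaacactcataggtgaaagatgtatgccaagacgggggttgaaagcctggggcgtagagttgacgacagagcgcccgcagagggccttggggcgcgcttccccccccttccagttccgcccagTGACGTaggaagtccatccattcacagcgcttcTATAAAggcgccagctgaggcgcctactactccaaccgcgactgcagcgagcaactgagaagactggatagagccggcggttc

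Jun, chr4:94940410-94940709, minus strand: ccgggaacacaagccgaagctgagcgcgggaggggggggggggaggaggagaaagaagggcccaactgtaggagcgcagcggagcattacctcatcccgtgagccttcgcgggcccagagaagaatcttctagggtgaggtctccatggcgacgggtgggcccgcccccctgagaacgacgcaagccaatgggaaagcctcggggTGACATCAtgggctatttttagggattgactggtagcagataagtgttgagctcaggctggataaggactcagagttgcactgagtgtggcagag

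Junb, chr8:85705328-85705627, minus strand: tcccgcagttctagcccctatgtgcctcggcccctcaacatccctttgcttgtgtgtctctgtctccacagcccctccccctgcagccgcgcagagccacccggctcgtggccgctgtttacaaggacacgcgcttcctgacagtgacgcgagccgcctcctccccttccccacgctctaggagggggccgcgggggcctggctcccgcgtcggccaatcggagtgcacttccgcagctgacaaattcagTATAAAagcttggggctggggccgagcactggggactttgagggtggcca

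Batf, chr12:85733244-85733543, plus strand: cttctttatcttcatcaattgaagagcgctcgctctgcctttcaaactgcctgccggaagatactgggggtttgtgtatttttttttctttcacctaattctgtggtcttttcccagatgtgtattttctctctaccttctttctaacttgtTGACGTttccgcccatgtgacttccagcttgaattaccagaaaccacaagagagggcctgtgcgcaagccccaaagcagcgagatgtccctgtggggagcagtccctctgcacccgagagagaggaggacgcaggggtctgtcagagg

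In Fos the letters TGACGT, the core of the cAMP response element bound by CREB and ATF proteins, begin 66 bases before the start of the counted gene, and in Batf 47 bases before it (98 before the RefSeq start). Atf3 also held these letters, on the other strand, in a window at a start that lies inside the counted gene. The core was found in 7.51% of the 32851 promoters of the same length. Jun held TGACATCA, the variant element at which JUN and ATF2 are known to act on the Jun gene itself, 45 bases before the start. This element was found in 3.62% of all promoters and in no other member. Fos and Junb held the TATA box letters TATAAA, as did 13.6% of all promoters, 33 bases before the start of the counted gene in Fos and 30 bases before it in Junb, where they begin at the RefSeq start. The AP-1 element TGACTCA (5.20% of all promoters) and the full cAMP response element TGACGTCA (1.79%), which would include the core, were in none of the 9 members' windows in the table. The Jund window ends at position 71150438 of chromosome 8, before the counted Jund gene starts at 71151599, and so does not bear on that gene. The table holds no promoter for Fosl1. None of the motifs searched was present in all 3 members that fell, and the core in Fos was also in Batf. Other elements, the serum response element among them, were not searched. A match of letters is a description of the window and not of binding.

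Levels per length set the scale of the family. In FPKM, the counted read pairs per kilobase of exon scaled to the total of the library, R26-WT libraries held 552 ± 127 of Junb, 253 ± 42.9 of Jund, 117 ± 27.4 of Jun, 63.3 ± 14.8 of Batf and 40.1 ± 19.1 of Fos (SD, n = 4). Junb ranked 72nd by mean level among the 16363 genes whose mean count reached 10, and Jund 168th. Fosb, at 0.507 ± 0.138, stood far below Fos, and Fosl2 (0.200 ± 0.0758), Atf3 (0.0777 ± 0.0258) and Fosl1 (0.0250 ± 0.0149) were lower again. In R26-TIR1(F74G) the order was the same for Junb (343 ± 43.8) and Jund (229 ± 33.6), while Jun (71.9 ± 8.58) and Batf (72.7 ± 21.3) stood level, within their spread (SD, n = 6). Fos followed at 22.0 ± 5.29. Batf and Fos overlapped in R26-WT, where Batf ranged from 49.6 to 79.8 and Fos from 26.5 to 68.3.

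Fos, Jun and Junb, the abundant immediate early members, were 1.63- to 1.85-fold lower in R26-TIR1(F74G) than in R26-WT. DESeq2 called these 3 of the 8 members whose mean count reached 10, all lower (adjusted p under 0.05). Over all 16363 genes tested, 0.336% were called lower and 1.74% were called in either direction. The log2 fold change was below 0 for 6 of the 8 members and for 49.9% of all genes. Fosb and Fosl2 had negative fold changes of similar size but did not pass the test, and neither did Jund, Batf or Atf3. The edgeR quasi-likelihood test called only Jun among the members, and 0.0428% of all genes lower.

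**Figure D1:**
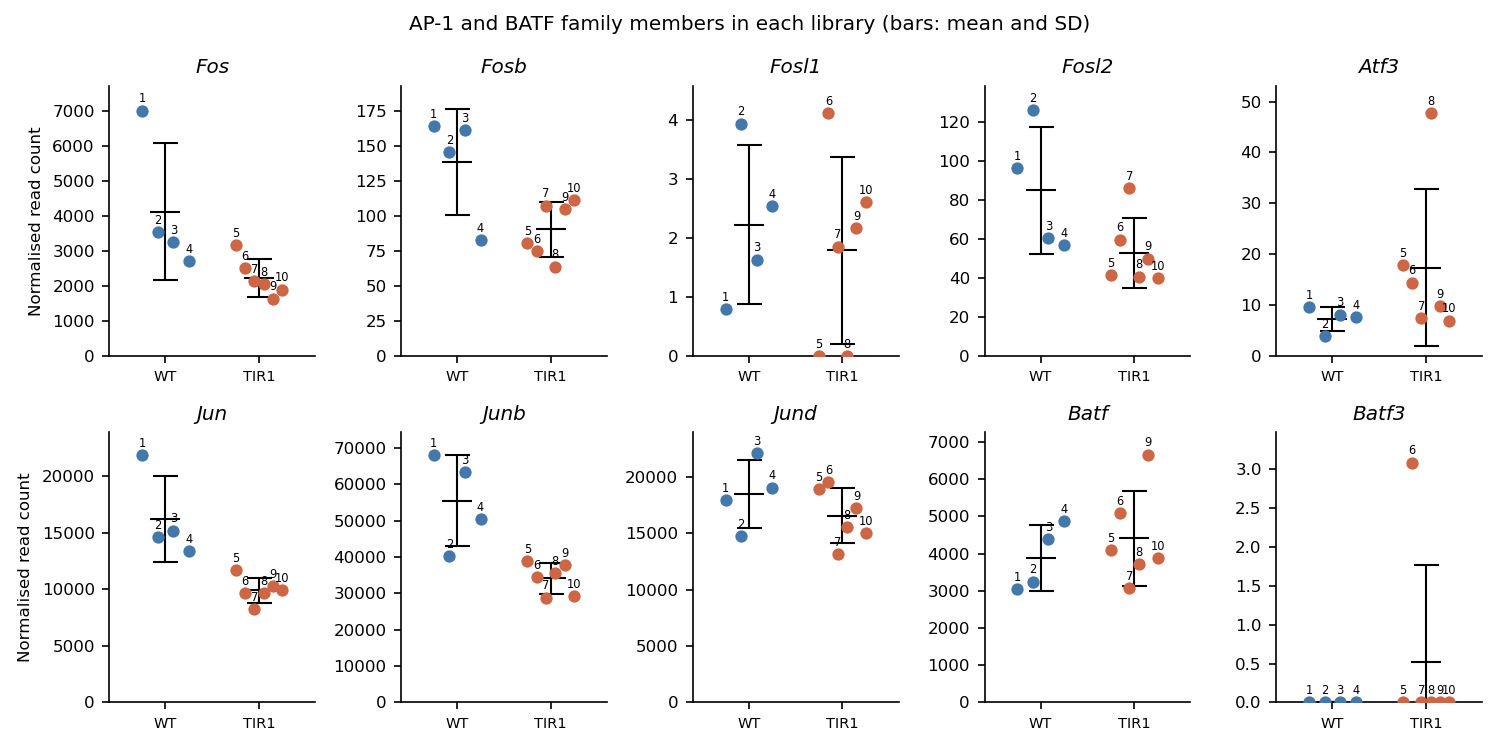
Normalised read counts of the 10 members (linear axes from 0, a scale of its own for each gene) in 4 R26-WT (blue) and 6 R26-TIR1(F74G) (orange) libraries. Points are libraries with their replicate number, and bars are the mean and SD. For Jun and Junb all orange points lie below all blue points, whereas Jund and Batf are interleaved.

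Among the JUN genes, Jun encodes c-Jun, the main partner of c-Fos. Its normalised read counts were 21828, 14585, 15185 and 13367 in R26-WT replicates 1 to 4. In R26-TIR1(F74G) they ranged from 8222 to 11699 with a median of 9785 over the 6 libraries. All R26-TIR1(F74G) libraries were lower than the lowest R26-WT library. The fall was 1.64-fold (95% interval 1.32 to 2.04). On the log2 scale it was −0.71 ± 0.16 (SE), with an adjusted p of 0.0011 by DESeq2 and 0.0473 by edgeR.

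Junb, the most abundant member, encodes a JUN protein that pairs with BATF as well as with FOS proteins. It had 68015, 40255, 63221 and 50328 normalised read counts in R26-WT and between 28835 and 38778 in R26-TIR1(F74G), with a median of 34960. The groups did not overlap here either, although the lowest R26-WT library, replicate 2, was close to the highest R26-TIR1(F74G) library at 38778. The fall was 1.63-fold with an interval of 1.30 to 2.04. On the log2 scale it was −0.70 ± 0.17 (SE), with an adjusted p of 0.00279 by DESeq2 and 0.0673 by edgeR. Groups that did not overlap, with R26-TIR1(F74G) lower, were found for 0.801% of all genes tested.

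Jund, the third JUN gene and the least inducible, had 14751 to 22104 counts in R26-WT and 13139 to 19505 in R26-TIR1(F74G), and the groups overlapped widely. Its log2 fold change was −0.16 (95% interval −0.46 to 0.14, DESeq2 adjusted p 1.00), and it ran from −0.25 to −0.06 with each library left out in turn (without R26-WT replicate 2 and 3). A gene on the opposite strand shares 52.6% of the exon bases of Jund, against 7.28% for Jun and 7.52% for Junb, and read pairs that overlap both genes were not counted.

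Fos encodes c-Fos, the prototype partner of JUN proteins. Its normalised read counts in R26-WT were 7013, 3532, 3254 and 2703. In R26-TIR1(F74G) they ran from 1635 to 3175 with a median of 2100. Replicate 1 stood apart from the other R26-WT libraries, and the groups overlapped, since the highest R26-TIR1(F74G) library lay above the lowest R26-WT library. The log2 fold change was −0.88 ± 0.26 (SE), a 1.85-fold fall with an interval of 1.29 to 2.64. DESeq2 called it at the edge of the threshold (adjusted p 0.0493) and edgeR did not (adjusted p 0.244). The call of Fos was lost when any 1 of 8 libraries was left out (adjusted p 0.0537 to 0.463), and was kept without R26-WT replicate 4 or R26-TIR1(F74G) replicate 5.

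R26-WT replicate 1 was the highest of all 10 libraries in Fos, Jun and Junb. Without it the log2 fold changes became −0.50 for Fos (DESeq2 adjusted p 0.463), −0.54 for Jun (0.00621) and −0.59 for Junb (0.0519). The call of Jun was kept and those of Fos and Junb were not.

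Fosb encodes a FOS protein with a splice form that lacks the activation domain. It had 164, 146, 161 and 82.9 counts in R26-WT and 63.7 to 111 in R26-TIR1(F74G), with a median of 92.6. Only R26-WT replicate 4 fell within the range of the other group. The log2 fold change of −0.61 ± 0.25 (SE) was not called (adjusted p 0.351 by DESeq2), but it was without that library (−0.78, adjusted p 0.0369).

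Fosl2 encodes FRA-2, which lacks the activation domain of c-Fos. It had 96.3, 126, 60.2 and 56.7 counts in R26-WT against 39.9 to 86.1 with a median of 45.5, and the groups overlapped. Its log2 fold change was −0.67 (95% interval −1.29 to −0.05, DESeq2 adjusted p 0.603), and −0.42 without R26-WT replicate 2 (adjusted p 0.649). Fosl1, which encodes FRA-1, was not tested. Its raw counts were between 1 and 4 in R26-WT and between 0 and 4 in R26-TIR1(F74G), near the 3 counts that a count of 0 allows in a library, and a gene on the opposite strand shares 57.2% of its exon bases.

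Batf had 3040 to 4873 normalised read counts in R26-WT with a median of 3818 and 3066 to 6663 in R26-TIR1(F74G) with a median of 3987. The highest value was that of R26-TIR1(F74G) replicate 9, and the groups overlapped over the whole R26-WT range but its lowest library. The log2 fold change was 0.18, with a 95% interval from −0.25 to 0.62 (DESeq2 adjusted p 1.00). This interval does not reach the changes of Jun and Junb. With each library left out in turn the value ran from 0.03 (without R26-TIR1(F74G) replicate 9) to 0.31 (without R26-WT replicate 4). Batf3 had no count in 9 libraries and 3 raw counts in R26-TIR1(F74G) replicate 6, so no fold change was given.

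Atf3 had 9.55, 3.94, 8.14 and 7.61 normalised read counts in R26-WT and from 6.94 to 47.8 in R26-TIR1(F74G), with a median of 12.1. Its log2 fold change, 1.19 ± 0.61 (SE), was the largest of the 8 tested members in size and had the opposite sign to those of Fos and Jun, but it did not pass the test (adjusted p 0.727 by DESeq2). The highest value, in replicate 8, came from 27 raw counts in the library of lowest depth, and without it the log2 fold change was 0.60 (DESeq2 adjusted p 0.999).

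Ratios of counts within a library need no scaling between libraries, and they are given as a description, since these ratios were chosen after the values were seen. The log2 ratio of Jun to Jund was −0.20 ± 0.40 over the 4 R26-WT libraries and −0.73 ± 0.14 over the 6 R26-TIR1(F74G) libraries (SD). That of Junb to Jund was 1.57 ± 0.24 and 1.05 ± 0.14. Every R26-TIR1(F74G) library lay below every R26-WT library in both ratios. For Egr1, an immediate early gene induced by the same kinases as Fos, the log2 ratio in R26-TIR1(F74G) minus that in R26-WT was −0.76 for Jun to Egr1 and −0.74 for Junb to Egr1, again with no overlap. For Fos to Egr1 it was −0.88, from −1.23 ± 0.53 over the R26-WT libraries to −2.11 ± 0.25 over the R26-TIR1(F74G) libraries (SD), and there the groups overlapped. Jun and Junb already separated by their own counts, and how many other gene pairs separate in this way was not examined.

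The make-up of the family shifted with these changes. Junb held 53.4% ± 2.79 of the summed level per length over the 4 R26-WT libraries and 46.4% ± 2.095 over the 6 R26-TIR1(F74G) libraries (SD), and the ranges, 50.3 to 56.5% and 43.5 to 49.3%, did not overlap. Jund held 24.9% ± 2.98 and 31.0% ± 1.75, with ranges of 20.5 to 27.1% and 29.2 to 34.0%. Batf held 6.31% ± 1.69 and 9.75% ± 2.01, Jun 11.4% ± 1.96 and 9.76% ± 0.754, and Fos 3.88% ± 1.42 and 2.99% ± 0.622. In these 3 the ranges overlapped. The summed level was 1026 ± 188 FPKM in R26-WT and 740 ± 95.9 in R26-TIR1(F74G). These shares are of transcripts and not of proteins or dimers.

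**Figure D2:**
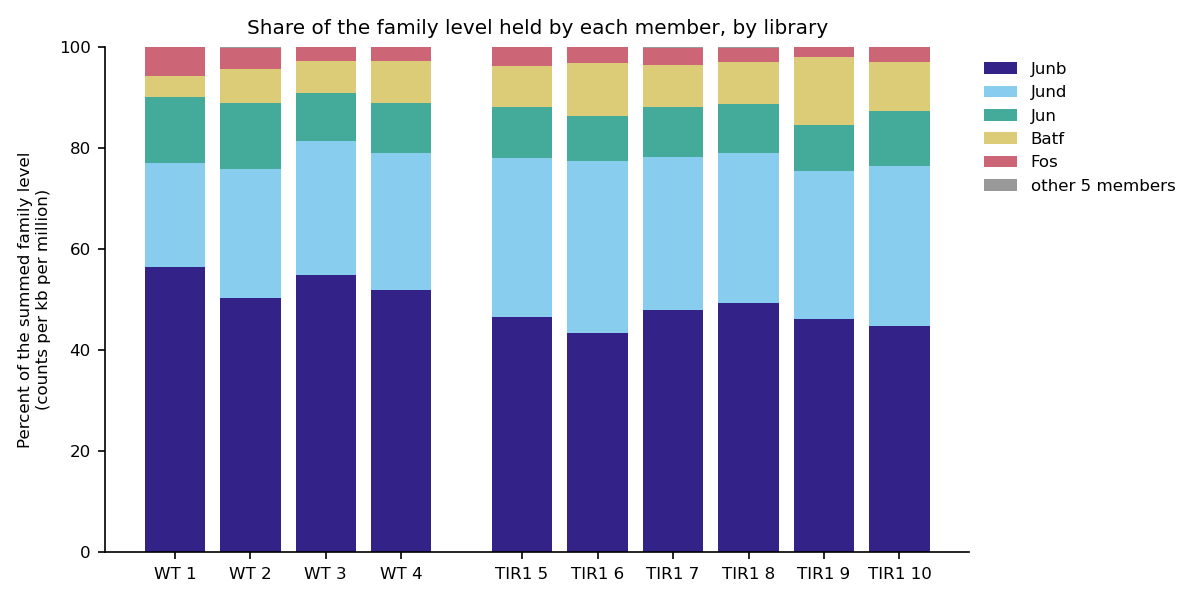
Percent of the summed family level (FPKM) held by Junb, Jund, Jun, Batf, Fos and the other 5 members in each of the 10 libraries, as stacked bars from 0 to 100%. The Junb part is between 50.3 and 56.5% in the R26-WT libraries and between 43.5 and 49.3% in the R26-TIR1(F74G) libraries, and the Jund part is larger in the latter.

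Few other genes of the pathway passed the test. None of the 20 tested genes for MAP kinases and serum response, which drive the transcription of Fos and the phosphorylation of JUN proteins, was called (lowest DESeq2 adjusted p 1.00, 0 genes at an unadjusted p under 0.05, 0 by edgeR). Their log2 fold changes ran from −0.11 to 0.28 with a median of 0.01. None of the 19 tested genes for other bZIP factors was called by DESeq2 or edgeR, with 2 genes at an unadjusted p under 0.05 by DESeq2. Nearest to a call was Cebpb, a C/EBP factor of stress and inflammatory responses, named here after its values were seen. It had 1018 ± 166 counts in R26-WT and 703 ± 116 in R26-TIR1(F74G), a log2 fold change of −0.54 ± 0.17 (SE) with an adjusted p of 0.0763 by DESeq2. In the alternatives, 1 of the 19 was called lower without R26-WT replicate 2 and with the gene length trend removed. With 1 surrogate variable as a covariate, 1 was called higher and 1 lower. The 5 partner genes Irf4, Irf8, Nfatc1, Nfatc2 and Nfatc3 had log2 fold changes of −0.15 to 0.27 and none was called by DESeq2 or edgeR, nor was any at an unadjusted p under 0.05. Of the 17 tested genes listed as BATF-dependent in effector Treg cells, DESeq2 called 1 and edgeR 0, beside 1.74% of all genes by DESeq2. At an unadjusted p under 0.05 there were 4, beside 6.86% of all genes, with Tigit and Prdm1 higher and Ctla4 and Tnfrsf18 lower. The called gene was Tigit, an inhibitory receptor, which rose from 42.8 ± 24.2 to 141 ± 99.5 counts. Its log2 fold change was 1.73 ± 0.45 (SE), with an adjusted p of 0.0102 by DESeq2 and 0.245 by edgeR. The call was lost without R26-WT replicate 1, 3 or 4 (DESeq2 adjusted p 0.0594 to 0.0984). It was also lost with limma voom, and without R26-WT replicate 1 and R26-TIR1(F74G) replicate 7 together. With 1 surrogate variable as a covariate it was lost too (DESeq2 adjusted p 0.0551), and 1 other gene of the list was called lower. The median log2 fold change of this list was −0.11, and 0.00063 over all genes tested. With each library left out, the median of the list ran from −0.18 (without R26-TIR1(F74G) replicate 9) to 0.26 (without R26-WT replicate 1).

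Immediate early genes answer to cell handling and to TCR stimulation, and both programmes were therefore read in the same libraries from lists that hold none of the members. The handling list itself holds immediate early genes, which answer to both, so the lists do not tell the programmes apart. Of the 20 tested genes of the handling response, which covers immediate early and heat shock genes known from tissue dissociation, DESeq2 called 1 lower and none higher (edgeR 0). At an unadjusted p under 0.05 there were 6 genes, 5 of them lower (Ppp1r15a, Dusp1, Ier5, Klf6 and Zfp36) and 1 higher (Socs3), where 6.86% of all genes passed in either direction and 2.68% were lower. With each library left out, the median log2 fold change ran from −0.13 (without R26-WT replicate 3) to 0.02 (without R26-TIR1(F74G) replicate 7). Over all 10 libraries the median was −0.05, and 14 of the 20 were negative. That median covers unlike parts, since it was −0.28 over the 13 genes that are not heat shock genes, of which 10 were negative, and −0.0055 over the 7 heat shock genes, of which none was among those 6. The count of 1 became 2 without R26-WT replicate 2 or 3 or R26-TIR1(F74G) replicate 6 and with the gene length trend removed, and 5 with 1 surrogate variable as a covariate, all lower. It became 0 with limma voom, with the list's own genes other than heat shock genes as a covariate, and without R26-WT replicate 1 and R26-TIR1(F74G) replicate 7 together. Of the 22 tested genes of TCR stimulation DESeq2 again called 1 lower and none higher (edgeR 0), with a median of −0.06 and 13 negative values. At an unadjusted p under 0.05 there were 4 genes, Cd5, Cd69, Tnfrsf4 and Tnfrsf9, all lower. The count of 1 became 3 without R26-TIR1(F74G) replicate 6 and 4 with 1 surrogate variable, again all lower, and 0 with limma voom. The 8 tested members had a median of −0.64 and 6 negative values, and 6 had an unadjusted p under 0.05, 5 of them lower.

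Ppp1r15a, the stress gene that encodes the phosphatase subunit GADD34, was the handling gene that fell. It had 6034 to 12425 counts in R26-WT and 4390 to 5797 in R26-TIR1(F74G), and the groups did not overlap. Its log2 fold change was −0.77 ± 0.19 (SE), with an adjusted p of 0.00592 by DESeq2 and 0.0928 by edgeR. Dusp1, which encodes a MAP kinase phosphatase, had a log2 fold change of −0.58 (DESeq2 adjusted p 0.174), Ier5 of −0.40 (0.246) and Ier2 of −0.31 (0.895). Egr1 had 8241 to 9850 counts in R26-WT and 8570 to 10598 in R26-TIR1(F74G), a log2 fold change of 0.06 ± 0.10 (SE) with an adjusted p of 1.00 by DESeq2. The heat shock genes Hspa1a and Hspa1b varied widely within both groups, Hspa1a from 18.7 to 409 counts in R26-WT and from 31.4 to 946 in R26-TIR1(F74G). These genes other than Ppp1r15a were named after their values were seen.

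Tnfrsf9, which encodes the costimulatory receptor 4-1BB, was the TCR stimulation gene that fell. It had 7247 to 8610 counts in R26-WT and 4861 to 6095 in R26-TIR1(F74G), with no overlap. Its log2 fold change was −0.49 ± 0.11 (SE), with an adjusted p of 0.000565 by DESeq2 and 0.0510 by edgeR. Nr4a1, the common reporter of TCR signal strength, had a log2 fold change of −0.06, Egr2 of 0.16 and Myc of 0.05, each with a DESeq2 adjusted p of 1.00. Cd69 was at −0.42 (DESeq2 adjusted p 0.279). These 4 genes too were named after their values were seen.

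**Figure D3:**
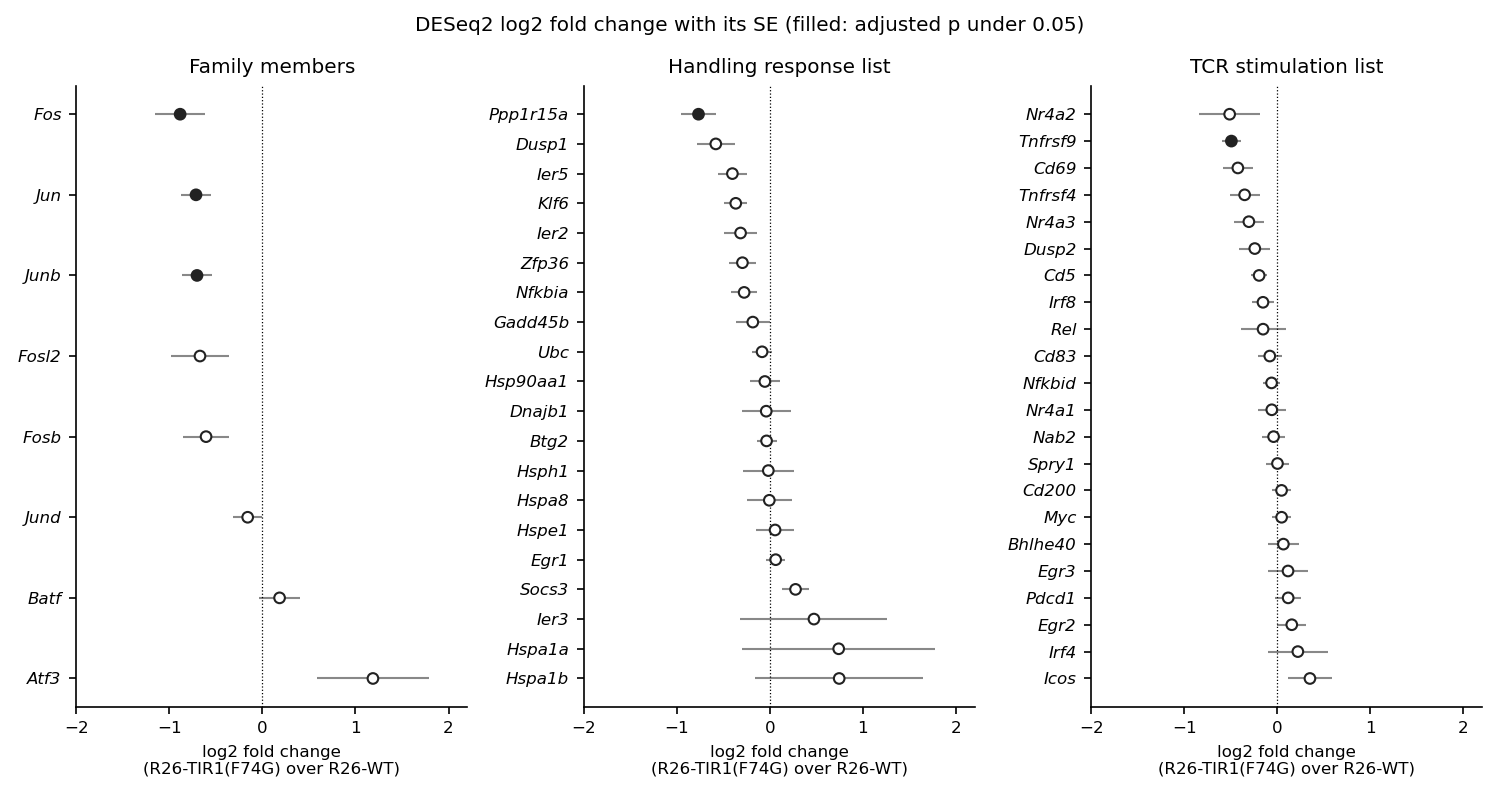
DESeq2 log2 fold change (R26-TIR1(F74G) over R26-WT) with its SE for the 8 tested members, the 20 tested handling response genes and the 22 tested TCR stimulation genes, ordered by value. Filled points have an adjusted p under 0.05. In the members Fos, Jun and Junb are filled and negative, and in each of the other lists 1 point is filled, Ppp1r15a or Tnfrsf9.

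Whether libraries with more of either programme also held more of the members was examined within groups, after the mean of each group had been taken out. Of the 16 relations of 8 members with 2 lists over 10 libraries, none passed an adjusted p of 0.05 in an exact permutation of libraries within groups, and 0 had an unadjusted p under 0.05. For the handling response list, Pearson's r was 0.20 for Fos (Spearman's rho 0.36, permutation p 0.536 and 0.298), 0.29 for Jun (rho 0.41, permutation p 0.369 and 0.254) and −0.15 for Junb (rho −0.18, permutation p 0.649 and 0.613). Without the 2 libraries farthest from the median of the list these r were 0.22, 0.04 and −0.67. For the TCR stimulation list, r was 0.34 for Fos (rho 0.41, permutation p 0.642 and 0.400), 0.29 for Jun (rho 0.27, permutation p 0.740 and 0.653) and −0.20 for Junb (rho −0.02, permutation p 0.673 and 0.973), and 0.41, 0.45 and 0.27 without those 2 libraries. The highest r of the 16 relations was that of Fosl2 with the TCR stimulation list, 0.72 (rho 0.76, permutation p 0.0642 and 0.105), and 0.49 without those 2 libraries. Adjusted over the 16 relations, all these p-values were at least 0.845.

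Since Hspa1a and Hspa1b varied so widely, the handling list was read again without its 7 heat shock genes, a choice made after the data were seen. Junb then had the highest r, 0.71 (rho 0.68, permutation p 0.0458 and 0.0571, adjusted over 8 relations 0.231), and 0.73 without the 2 farthest libraries. Jun had 0.62 (rho 0.55, permutation p 0.0791 and 0.126, adjusted 0.231) and Fos 0.44 (rho 0.38, permutation p 0.273 and 0.313, adjusted 0.436), but 0.26 and 0.33 without those libraries. None of these relations passed the adjusted threshold.

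The handling lists were also entered into the DESeq2 fit, and the TCR stimulation list was not. With the full list as a covariate the log2 fold changes of Jun (−0.71, DESeq2 adjusted p 0.00245) and Junb (−0.70, adjusted p 0.00676) were nearly the same, and that of Fos (−0.87) was no longer called (adjusted p 0.0789). With the list without heat shock genes they were −0.58 for Jun (DESeq2 adjusted p 0.0200), −0.55 for Junb (adjusted p 0.0270) and −0.66 for Fos (adjusted p 0.476). The mean log2 level of that shorter list was 12.78 ± 0.22 over the R26-WT libraries and 12.63 ± 0.19 over the R26-TIR1(F74G) libraries (SD), with overlapping ranges. The mean log2 level of the full list differed between groups by −0.03 and that of the shorter list by −0.16. For the TCR stimulation list the difference was −0.08, with ranges of 11.67 to 11.95 in R26-WT and 11.65 to 11.76 in R26-TIR1(F74G). How the cells were handled is not recorded per library. The parts of handling and of TCR stimulation in the changes of Fos, Jun and Junb were not tested.

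**Figure D4:**
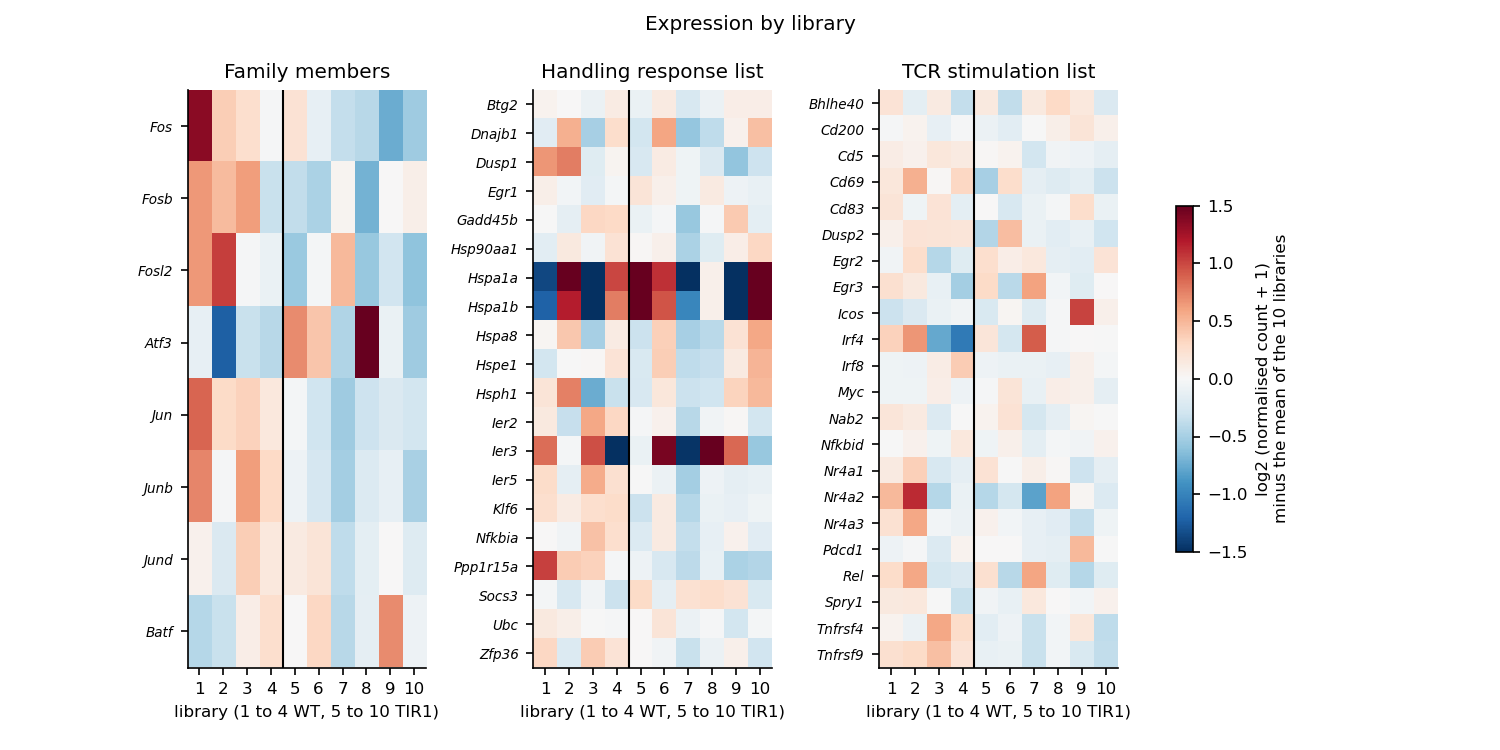
Expression by library of the 8 tested members, the 20 handling response genes and the 22 TCR stimulation genes, as log2 (normalised count + 1) minus the mean of the 10 libraries (red high, blue low, values beyond 1.5 drawn at the end of the scale). Columns are libraries, R26-WT 1 to 4 left and R26-TIR1(F74G) 5 to 10 right of the line. Jun and Junb are red to white on the left and blue to white on the right, and Hspa1a and Hspa1b change from library to library in both groups.

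The genes whose pattern over the 10 libraries, with group means taken out, was most like that of a member were sought among 11319 genes whose mean normalised count reached 100. For Fos these were Tm9sf2 (r = 0.92), Ppp1r15a (r = 0.92) and Smad1 (r = 0.92). For Junb they were Fkbp7 (r = 0.95), Zfp36 (r = 0.94), which encodes an RNA-binding protein of the early response, and Vamp3 (r = 0.91). For Batf they were Mycbp, Ifi27l2a and Sdf2, with r of 0.99, 0.98 and 0.98. They are the highest of many values and were given as a description.

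Other features of the libraries moved with the groups, and their part in the change of Fos, Jun and Junb was not tested. Of the 17 proliferation genes 14 rose in R26-TIR1(F74G), led by Stmn1, Ube2c and Rrm2 (log2 fold changes 1.30, 1.63 and 1.43, DESeq2 adjusted p 1.31e-14, 8.33e-11 and 3.39e-09), and edgeR called 7 of the 17. Their summed level was 162 to 207 CPM (counts scaled to the library total) in R26-WT and 292 to 445 in R26-TIR1(F74G). Of the 9 resting T cell genes 1 rose, Tcf7, which encodes the factor TCF-1 (log2 fold change 0.43, DESeq2 adjusted p 0.0257), and edgeR called none. The call of Tcf7 was lost when any 1 of 7 libraries was left out (R26-WT replicate 3 or 4, or R26-TIR1(F74G) replicate 5, 6, 7, 8 or 10, DESeq2 adjusted p 0.0517 to 0.216). The summed level of the 7 B cell markers, of which 3 were tested, was 431 to 666 CPM in R26-WT and 306 to 431 in R26-TIR1(F74G), and Ighm fell (log2 fold change −0.54, DESeq2 adjusted p 0.0137), with Cd79a at 145 to 271 and Cd79b at 525 to 1091 normalised counts over the 10 libraries (log2 fold changes −0.24 and −0.33, neither called). Ms4a1 and Pax5 had at most 4.46 normalised counts in any library. The call of Ighm was lost without R26-WT replicate 3 or 4 or R26-TIR1(F74G) replicate 5 (DESeq2 adjusted p 0.0521 to 0.143). Of the 10 myeloid markers 4 were tested and none of these was called (summed level 58.6 to 88.4 and 54.6 to 79.4 CPM). Cst3, at 2331 to 3802 normalised counts over the 10 libraries, made up most of that sum, Lyz2, Fcgr3 and Itgam had at most 33.3 in any library, and Cd14 and S100a9 were at 0. Of the 8 CD8 and NK markers 7 were tested and only Eomes rose (log2 fold change 1.47, DESeq2 adjusted p 4.54e-08), while Ncr1 was at 0. Cd8b1, Prf1 and Nkg7 had 1076 to 1812, 507 to 722 and 310 to 881 normalised counts over the 10 libraries and were not called (log2 fold changes −0.23, −0.06 and −0.48). By contrast, Cd8a had at most 32.6 normalised counts in any library, Klrd1 at most 24.4 and Klrb1c at most 46.5, and none of these was called. The summed levels were 58.1 to 76.0 and 49.96 to 74.6 CPM. Of the 6 erythroid and platelet markers only Alas2 was tested (log2 fold change −0.89, DESeq2 adjusted p 0.900), and the platelet genes Pf4 and Ppbp were at 0. None of the 9 Treg and CD4 T cell markers was called, but with 1 surrogate variable as a covariate 1 was called higher and 3 lower. At an unadjusted p under 0.05 there were 3, Ctla4, Izumo1r and Tnfrsf18, all lower. The summed level of the 9 markers was 3692.5 to 3838 CPM in R26-WT and 3374 to 3654 CPM in R26-TIR1(F74G), ranges that did not overlap. Of the 9 markers 6 had a negative log2 fold change, among them Il2ra (−0.29) and Ikzf2 (−0.16). The CD4 T cell markers Cd3e (41850.5 to 51096.6 normalised counts) and Cd4 (18816.5 to 31543.9) were high in all 10 libraries. Their log2 fold changes were −0.05 and 0.26. Other genes share 31.5% of the exon bases of Foxp3. Foxp3, the gene whose protein the degron targets, had 6816 to 11779 counts in R26-WT and 6778 to 16059 in R26-TIR1(F74G), with a log2 fold change of 0.07 that was within its SE of 0.25. Libraries held 44929734 to 54795718 counted read pairs in R26-WT and 24158699 to 49333756 in R26-TIR1(F74G). In bulk samples a smaller share of cells that express a gene and less RNA per cell cannot be told apart.

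**Figure D5:**
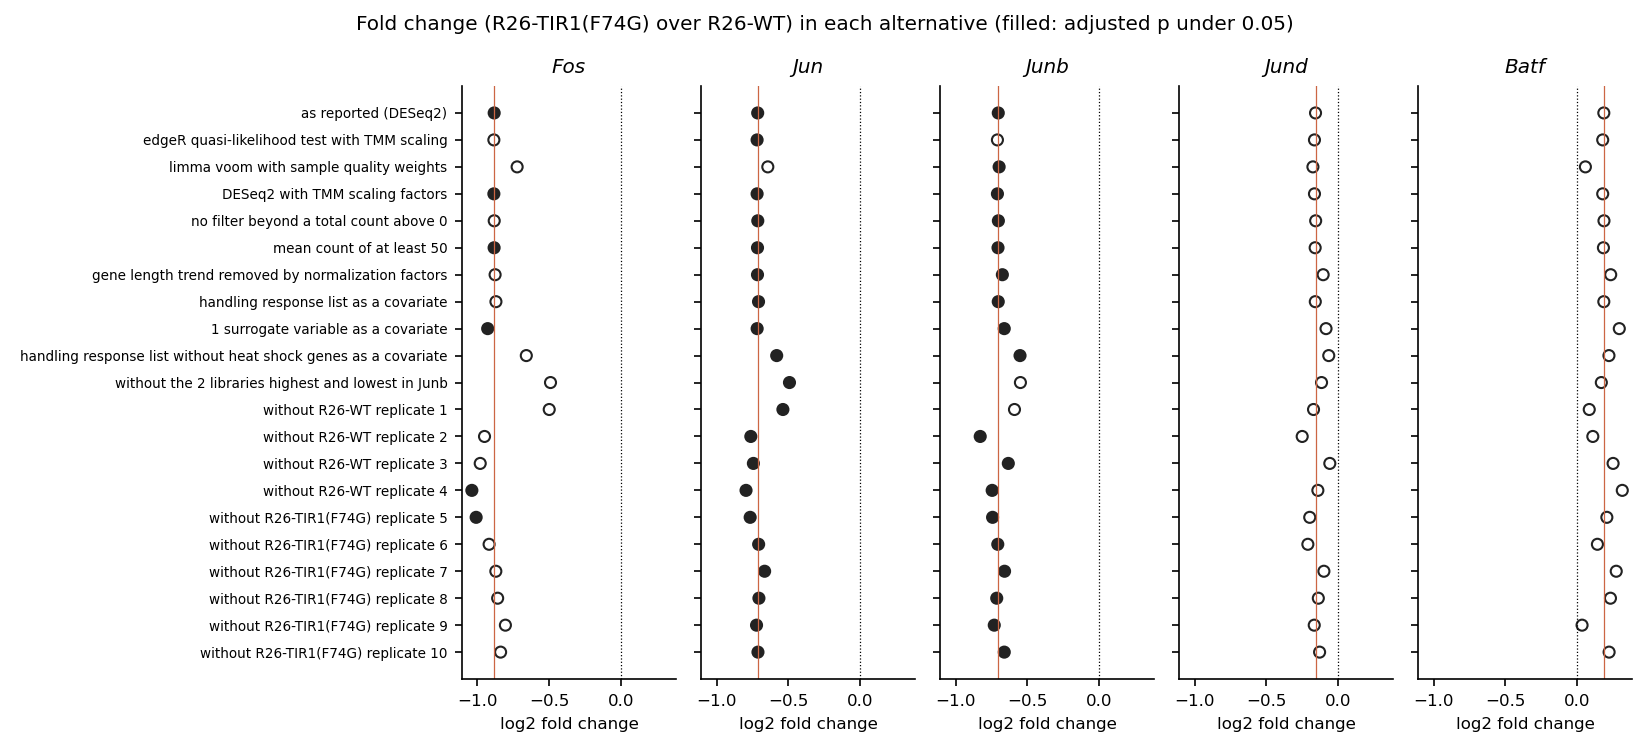
Log2 fold change of Fos, Jun, Junb, Jund and Batf as reported (top, orange line) and in 20 alternatives of test, scaling, filter, covariate and libraries. Filled points have an adjusted p under 0.05. Jun is filled in 19 of the 20 alternatives, Junb in 17 and Fos in 5, while Jund and Batf are filled in none.

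The sign of each of the 8 tested members was the same in every alternative that gave it a value. Jun ranged from −0.79 to −0.49 and was not called with limma voom alone (adjusted p 0.0510). Junb ranged from −0.83 to −0.55, and Fos from −1.04 to −0.49.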

How the data were processed

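RNA was measured in 10 bulk libraries of Treg cells, 4 R26-WT and 6 R26-TIR1(F74G), grouped by genotype as labelled. Per the labels, nanogram amounts of TRIzol-extracted RNA of varied integrity were amplified with SMART-Seq v4, followed by PCR without molecular identifiers. Amplification and RNA quality can change levels, and neither is given per library. The authors deposited whole-number counts of read pairs per gene name. Per the file headers, these counts were made with featureCounts 2.1.1 and GENCODE M30, keeping primary, properly paired alignments of mapping quality 30 or more, without strand and without pairs that overlap 2 genes. The build is mm39 (GRCm39). The processing notes name Bowtie2 as aligner and the study's methods name STAR. No deposited column of another sample was found (0 columns).

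The study's design was followed. DESeq2 1.42.0 (R 4.3.3, Wald test, Benjamini-Hochberg adjustment, threshold 0.05) was fitted on genotype to the 16363 genes with a mean of 10 or more counts, and normalised read counts are counts divided by its size factors. It gave no adjusted p for 6 of them. Alternatives were edgeR 4.0.16 (quasi-likelihood, TMM), limma 3.58.1 voom with quality weights, other filters and scalings, covariates (sva 3.50.0) and leaving out each library. The fits were run on simulated counts only to check the sign and median size of planted changes, which does not bear on the calls given here. Correlations within groups were tested by exact permutation, and those without centring by random permutation of all libraries (numpy 2.4.6, scipy 1.17.1). Correlations and likeness used log2 (normalised count + 1). Intervals are 95% from the DESeq2 estimate and SE, and the floor of 3 counts covers counting error only. Libraries held 24158699 to 54795718 counted pairs, and no 2 of one group agreed within sampling noise (chi-square per degree of freedom 9.45 to 215 over 21 pairs).

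The members and lists were chosen with earlier results of these data known. The text names the members, Foxp3, and from each list the called genes (at most 3 a direction, by adjusted p). For likeness it names the 3 genes with the highest r to Fos, Junb and Batf. Other genes, those at an unadjusted p under 0.05 and single cell type markers among them, were named after their values were seen.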

Additional observations from a re-analysis of the deposited data

Results flagged for a closer look

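Atf3 in R26-TIR1(F74G) replicate 8 had 47.8 normalised read counts, while its group otherwise ran from 6.94 to 17.9. The gap to the nearest library took up 0.733 of the range of the group (critical value 0.625 for 6 libraries), and the value rests on 27 raw counts. Foxp3 in R26-TIR1(F74G) replicate 7 had 16059 normalised read counts, while its group otherwise ran from 6778 to 9851 (gap 0.669 of the range). These were 2 of 24 groups of values examined, where 1.2 are expected by chance.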

How the results depend on the processing

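The direction of each tested member was the same in all alternatives that gave a value, and of 159 member fold changes 139 stayed on the same side of the threshold, 19 lost the call and 1 (Fosb) gained it. DESeq2 called 3 members, 20 list genes and 284 of all genes. The edgeR test called 1 member, 8 list genes and 61 genes, and limma voom 1, 11 and 80. With 1 surrogate variable 34 list genes and 743 genes were called, and 63.0% of calls were higher in R26-TIR1(F74G) in place of 80.6%. Without R26-WT replicate 1 and R26-TIR1(F74G) replicate 7, the libraries highest and lowest in Junb, 1 member and 189 genes were called. Leaving out each library gave 1 to 4 members and 187 (without R26-WT replicate 4) to 346 genes. The causes were not tested. Calls of Ighm, Ppp1r15a, Tcf7, Tigit and Tnfrsf9 were lost 29 times in all, each of them with edgeR.

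The log2 fold change of Foxp3, 0.07, became −0.10 with the surrogate variable, −0.16 with the handling list without heat shock genes as covariate and −0.092 without those libraries, and ran from −0.15 (without R26-TIR1(F74G) replicate 7) to 0.24 with each library left out. It was called in none. Correlations changed sign within the 6 R26-TIR1(F74G) libraries, to −0.22 for Fos and −0.0024 for Jun with the TCR stimulation list, and for Junb to 0.23 with the handling list and 0.55 with the TCR list. For Junb they also became 0.71 with the handling list without heat shock genes, 0.28 with the TCR list without centring and 0.27 without the 2 farthest libraries. No correlation passed an adjusted p of 0.05. The differences of the 5 log2 ratios kept their sign with each library left out. By counts not scaled to length, Junb held 56.0% in R26-WT and 50.6% in R26-TIR1(F74G), Jund 19.0% and 24.5%, Jun 16.6% and 14.8%, Batf 4.06% and 6.51%, and Fos 4.13% and 3.33%, so that Batf stood below Fos in R26-WT. The shorter handling list, the omission of 2 libraries and the ratios were chosen after the data were seen. No paired analysis was possible because replicate numbers 1 to 4 occur in R26-WT alone and 5 to 10 in R26-TIR1(F74G) alone. Fosl1 and Batf3 were too shallow for any statement on a change.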
